A study of Mus musculus with 7 samples.

Results

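The genes described here are 10 enzymes and regulators of de novo lipogenesis, namely Fasn, Acaca, Acacb, Acly, Scd1, Scd2, Srebf1, Mlxipl, Thrsp and Pnpla3. They were picked by symbol from a liver RNA-seq count table of 24421 gene symbols. All 10 symbols were found, and all 10 passed the filter on low counts, as did 13638 genes in total. The rule reads symbols and no measured value.

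De novo lipogenesis turns carbohydrate carbon into fatty acids in the hepatocyte cytosol. ATP citrate lyase splits exported citrate into acetyl-CoA, acetyl-CoA carboxylase makes malonyl-CoA from it, fatty acid synthase builds palmitate, and stearoyl-CoA desaturase introduces a double bond before the chains enter triglyceride. The transcription factors SREBP-1c, which insulin and the nuclear receptor LXR induce, and ChREBP, which answers to glucose, switch these enzymes on together after feeding.

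The comparison set 4 livers labelled Prkciflox/flox with AlbCre (titled PrkciffAlbcre, here called knockouts 1 to 4) against 3 livers labelled Prkciflox/flox alone (titled Prkciff, here called controls 1 to 3). Prkci encodes the atypical protein kinase C lambda/iota, and the albumin promoter drives Cre in hepatocytes. Liver cells in which Cre was never active keep an intact gene, and the labels do not say which cells those are. Both groups are C57BL/6 mice of 36 weeks that had been given the carcinogen diethylnitrosamine (DEN, 25 mg/kg, intraperitoneally) at 2 weeks of age and a diet with 60% fat for 32 weeks from week 4, so no group on chow or without DEN was compared. The labels give neither the feeding state at collection nor whether tumour was included.

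Gene-assigned reads came to 28695455 to 49203615 in the knockouts and to 23807580 to 26556486 in the controls. Levels are given as CPM, gene-assigned reads scaled to a common library size with TMM factors, where 3 reads correspond to 0.0561 to 0.0982 CPM in the knockouts and 0.107 to 0.152 CPM in the controls. Prkci itself was at 30.0, 30.7, 28.2 and 28.7 CPM in the libraries labelled knockout, against 23.3, 20.4 and 27.7 CPM in the controls, at 0.30 on the log2 scale (SE 0.12, edgeR adjusted p = 0.214). A count over the whole gene includes exons outside a floxed segment and so does not check the labels, on which every direction below rests. With 1 library left out at a time, the edgeR adjusted p of Prkci ran from 0.0468, without control 3, to 0.548. The 12 acute phase genes summed to 26644 to 36122 CPM in the knockouts and to 27919 CPM in control 3, but to 153932 and 154270 CPM in controls 1 and 2. The TMM factors were 0.830 and 0.855 for controls 1 and 2, against 1.06 to 1.09 for the other libraries. With library size alone, an alternative chosen after seeing the data, the median log2 fold change of all genes was 0.22, against -0.01 with TMM, and 498 genes passed, 418 higher and 80 lower, against 172 higher and 130 lower with TMM.

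After adjustment over all 13638 genes (Benjamini-Hochberg), edgeR's quasi-likelihood test called 0 of the 10 lipogenic genes. It called 302 of all genes (2.21%), 172 of them higher (1.26%) and 130 lower (0.953%). At an unadjusted p under 0.05, 2 of 10 members were lower, beside 8.67% of all genes, and 0 were higher, beside 9.34%, so 2 of 10 in either direction stood beside 18.0%. The 2 were Srebf1 and Mlxipl, the genes of the transcription factors. The same 2 were lower in every knockout than in every control, while 7.63% of all genes were, and 0 of 10 members were higher without overlap (8.63% of all genes, 16.3% in either direction). DESeq2 called both of them (8.33% of all genes called) and limma-voom called 0 members. The median log2 fold change of the members was 0.15, with 6 of 10 above 0, beside -0.01 and 48.9% over all genes tested.

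**Figure D1:**
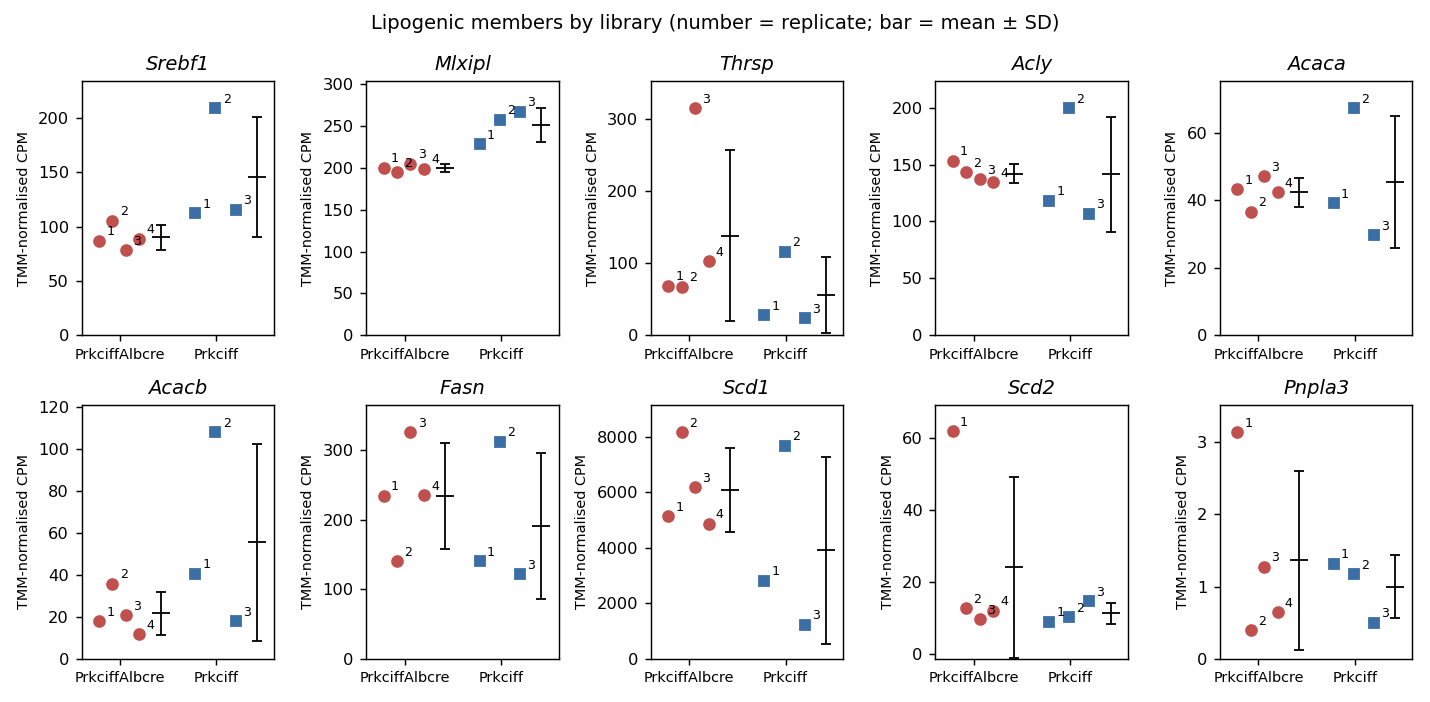
TMM-normalised CPM of each of the 10 genes on a linear axis, with one point per library numbered by replicate, PrkciffAlbcre (knockouts) as circles and Prkciff (controls) as squares, and the mean ± SD as a bar. Srebf1 and Mlxipl show groups that do not overlap, and control 2 lies above the other controls for Acly, Acaca, Acacb, Fasn, Scd1 and Thrsp.

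Srebf1 encodes SREBP-1, whose 1c form drives the lipogenic enzymes in liver. It lies on the minus strand of chromosome 11 from 60199089 to 60222581 (mm10 coordinates, ENSMUSG00000020538.15). It was at 87.2, 106, 78.6 and 88.8 CPM in the knockouts and at 112, 209 and 116 CPM in the controls, means of 90.0 ± 11.3 (SD, n = 4) and 146 ± 55.0 (SD, n = 3). Each knockout lay below each control, knockout 2 close to control 1, and control 2 stood far above the rest. The log2 fold change was -0.69 (SE 0.22, edgeR unadjusted p = 0.0121, adjusted p = 0.145; DESeq2 adjusted p = 0.0301). Without control 2 it was -0.34 (edgeR adjusted p = 0.349). In bulk tissue, fewer cells of a type and less RNA per cell cannot be told apart.

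Mlxipl encodes ChREBP, the glucose-responsive partner of SREBP-1c in this pathway (chromosome 5, 135089890 to 135138382, plus strand). It had the tightest values of the set, with 200, 195, 205 and 199 CPM in the knockouts and 228, 258 and 267 CPM in the controls, means of 199.8 ± 4.27 (SD, n = 4) and 251 ± 20.2 (SD, n = 3). The groups were separate, and the spread of log2 values among knockouts was smaller in 0.759% of tested genes. The log2 fold change was -0.33 (SE 0.11, edgeR unadjusted p = 0.0106, adjusted p = 0.138; DESeq2 adjusted p = 0.0206).

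Both separations held with RLE and upper-quartile factors but not by library size. By library size alone, Mlxipl was at 208 to 219 CPM in the knockouts and at 189.6, 220.2 and 283 in the controls, at -0.11 on the log2 scale (edgeR adjusted p = 0.705). By that scaling Srebf1 was at 83.7 to 113 CPM in the knockouts and at 93.2, 179 and 122 in the controls, at -0.44 (edgeR adjusted p = 0.207), and 0 members were lower without overlap, beside 2.16% of all genes. Relative to the median of all genes under that scaling, which was 0.22, both remained on the lower side. The acute phase reads of controls 1 and 2 moved with this difference between scalings, and their part in it was not tested.

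The upstream sequences of both regulators, whose groups separated, are shown with that of Fasn, a textbook target of both factors. The 250 bases before a RefSeq start (GRCm38.p6) were searched on both strands for the sterol regulatory element TCACNCCAC, the E-box CACGTG, the CCAAT box that binds NF-Y and the GC box GGGCGG that binds Sp1, and matches are in capitals. No matches of different motifs overlapped in the windows printed. The windows are Srebf1 at chr11:60210472-60210721 (minus strand, the most downstream of its 3 starts), Mlxipl at chr5:135089640-135089889 and, for its second start, chr5:135106641-135106890 (both plus strand), and Fasn at chr11:120824548-120824797 (minus strand).
Srebf1: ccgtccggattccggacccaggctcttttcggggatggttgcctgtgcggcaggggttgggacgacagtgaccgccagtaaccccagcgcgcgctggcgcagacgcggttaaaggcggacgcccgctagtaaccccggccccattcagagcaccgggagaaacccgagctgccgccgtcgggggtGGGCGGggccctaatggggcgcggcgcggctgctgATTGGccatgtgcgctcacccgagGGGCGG
Mlxipl, first start: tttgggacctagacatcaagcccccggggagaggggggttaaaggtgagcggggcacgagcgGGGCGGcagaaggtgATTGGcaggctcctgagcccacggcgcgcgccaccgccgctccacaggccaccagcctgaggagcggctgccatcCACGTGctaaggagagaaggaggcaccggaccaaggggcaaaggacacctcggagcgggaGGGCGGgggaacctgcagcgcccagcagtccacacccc
Mlxipl, second start: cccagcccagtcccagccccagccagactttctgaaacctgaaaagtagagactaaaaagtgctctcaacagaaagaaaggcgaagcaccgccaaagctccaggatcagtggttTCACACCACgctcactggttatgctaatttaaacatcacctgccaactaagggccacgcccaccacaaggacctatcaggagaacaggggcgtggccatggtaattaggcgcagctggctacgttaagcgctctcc
Fasn: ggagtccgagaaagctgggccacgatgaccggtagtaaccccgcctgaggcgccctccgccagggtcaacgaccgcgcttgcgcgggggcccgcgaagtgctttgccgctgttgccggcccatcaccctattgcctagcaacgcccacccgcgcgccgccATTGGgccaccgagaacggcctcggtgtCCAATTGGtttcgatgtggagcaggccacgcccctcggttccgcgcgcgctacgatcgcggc

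The Srebf1 window holds 1 CCAAT box and 2 GC boxes. The first Mlxipl window holds 1 E-box, beginning at -98 from the start, 1 CCAAT box and 2 GC boxes, and the second holds 1 sterol regulatory element at -136. The Fasn window holds 3 CCAAT boxes, a pair of which overlap on opposite strands at -62 and -59. Over all 32851 windows of this length in the RefSeq table, 1.05% held the sterol element, 6.02% the E-box, 33.8% a CCAAT box and 32.7% a GC box. These matches are letters in a window and were not tested for binding. The deposited counts sum all starts of a gene, so the 1a and 1c transcripts of Srebf1 were not separated.

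Thrsp (Spot 14, chromosome 7, 97412938 to 97417730) is a small protein induced by thyroid hormone and carbohydrate that accompanies lipogenesis. It was at 68.5, 67.1, 316 and 103 CPM in the knockouts and at 27.9, 116 and 23.5 CPM in the controls. Knockout 3 was far above the other knockouts, and control 2 lay above 3 of the 4 knockouts. The log2 fold change was 1.31 (SE 0.90, edgeR adjusted p = 0.521), and it ranged between 0.51 without knockout 3 and 2.43 without control 2. Its spread of log2 values exceeded that of 99.4% of tested genes in the knockouts and 98.9% in the controls.

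Acly, ATP citrate lyase, which supplies acetyl-CoA (chromosome 11, 100476353 to 100528000), was at 153, 143, 137 and 134 CPM in the knockouts and at 118, 199.5 and 107 CPM in the controls. The knockouts lay within a narrow band that falls inside the range of the controls. On the log2 scale the difference was 0.01 (SE 0.20, edgeR adjusted p = 0.994), with a sign that depended on the library left out and on the scaling.

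Acetyl-CoA carboxylase has a pair of genes. Acaca makes the cytosolic form whose malonyl-CoA feeds fatty acid synthase, and Acacb makes the form at the outer mitochondrial membrane whose malonyl-CoA restrains fatty acid entry for oxidation. Acaca (chromosome 11, 84129672 to 84401651) was at 43.2, 36.6, 47.1 and 42.4 CPM in the knockouts and at 39.0, 67.2 and 29.6 CPM in the controls, at -0.10 on the log2 scale (SE 0.25, edgeR adjusted p = 0.887). It was at 0.31 without control 2 and at 0.17 by library size alone, so its direction was not fixed.

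Acacb (chromosome 5, 114146535 to 114250761) varied much more, with 18.0, 35.8, 20.7 and 11.8 CPM in the knockouts and 40.4, 108 and 17.9 CPM in the controls. Controls 1 and 2 were above every knockout, whereas control 3 lay among them. The log2 fold change was -1.36 (SE 0.68, edgeR adjusted p = 0.374). It was -1.79 without control 3 (edgeR adjusted p = 0.146) and -0.43 without control 2 (edgeR adjusted p = 0.804), and against control 3 alone it was 0.27 (edgeR adjusted p = 0.907). The sequences of the 2 genes share 0 windows of 75 bases, the read length, so reads of one should not match the other exactly. Within a library, the Acacb to Acaca ratio of CPM was 0.417, 0.978, 0.440 and 0.279 in the knockouts and 1.04, 1.61 and 0.605 in the controls. The mean log2 ratio differed by -1.08, and 3 of 4 knockouts were below every control (exact two-sided permutation p = 0.114, adjusted over 3 ratios p = 0.343). With 4 against 3 libraries the smallest two-sided p that such a test can give is 0.0571.

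Fasn, the fatty acid synthase (chromosome 11, 120805846 to 120824547), was at 234, 141, 326 and 235 CPM in the knockouts and at 140.1, 312 and 121 CPM in the controls. Knockout 2 sat level with control 1, and control 2 with knockout 3, so the groups interleaved. The difference was 0.29 on the log2 scale (SE 0.40, edgeR adjusted p = 0.765).

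Scd1, the main liver stearoyl-CoA desaturase (chromosome 19, 44394455 to 44407879, minus strand), was by far the most abundant member. It was at 5134, 8178, 6180 and 4866 CPM in the knockouts and at 2808, 7677 and 1231 CPM in the controls. Every knockout exceeded controls 1 and 3, and control 2 exceeded 3 of the 4 knockouts. The controls spanned 6.24-fold, the knockouts 1.68-fold. The log2 fold change was 0.64 (SE 0.55, edgeR adjusted p = 0.601) and lay between 0.21 without control 3 and 1.59 without control 2. Scd1 made up 84.4% to 91.7% of the reads of the 10 members in the knockouts and 63.8% to 85.7% in the controls.

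Scd2 (chromosome 19, 44293674 to 44306864, plus strand) is a desaturase that prevails in brain and in young liver and is low in adult liver. It was at 61.8, 12.7, 9.59 and 12.0 CPM in the knockouts and at 8.96, 10.2 and 14.6 CPM in the controls. Knockout 1 stood alone, and the other 3 knockouts lay within the range of the controls. On the log2 scale this gave 1.10 (SE 0.79, edgeR adjusted p = 0.541), and 0.02 without knockout 1. Of the 5461 windows of 75 bases in Scd2 transcripts, 79 (1.45%) also occur in Scd1, and how such reads were counted is not given in the sources used here. In knockout 1, Scd1 itself was 5134 CPM, below knockouts 2 and 3.

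Other transcripts also stood out in knockout 1, and they were chosen after their values were seen. H19, an imprinted non-coding RNA of fetal liver and liver tumours, was at 219, 2.85, 15.0 and 13.6 CPM in the knockouts and at 1.47, 2.58 and 5.41 CPM in the controls. Afp, the fetal serum protein used as a liver tumour marker, was at 16.1, 2.50, 2.32 and 9.17 CPM in the knockouts and at 1.06, 1.88 and 1.71 CPM in the controls. The 5 tumour markers on the list, H19 and Afp among them, summed to 276 CPM in knockout 1, most of it the 219 CPM of H19. They summed to 18.9 to 37.8 CPM in the other knockouts and to 17.6 to 21.4 CPM in the controls. Their part in the Scd2 value was not tested.

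**Figure D2:**
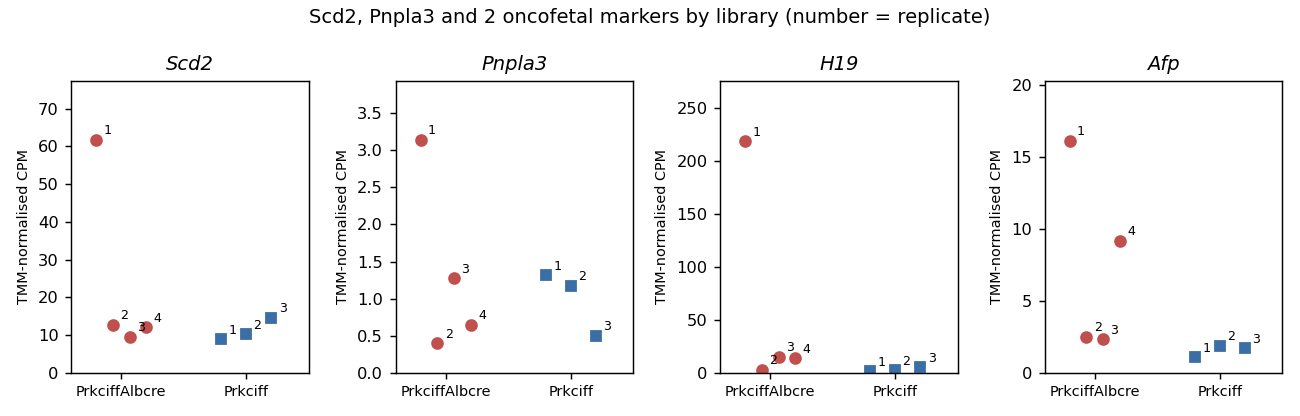
TMM-normalised CPM of Scd2, Pnpla3, H19 and Afp, one point per library on linear axes starting at 0, with PrkciffAlbcre (knockouts) as circles and Prkciff (controls) as squares numbered by replicate. Knockout 1 is the highest library for all 4 genes, with 61.8 CPM of Scd2 and 219 CPM of H19.

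Pnpla3, a lipid droplet protein of the patatin family that SREBP-1c induces and whose human form is tied to fatty liver (chromosome 15, 84167837 to 84187236), was barely expressed. It was at 3.14, 0.399, 1.28 and 0.646 CPM in the knockouts and at 1.32, 1.17 and 0.499 CPM in the controls. Knockout 1 was again the highest library and the groups overlapped, at 0.48 on the log2 scale (SE 0.70, edgeR adjusted p = 0.773) and -0.36 without knockout 1. At these depths its values rest on few reads.

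The SD of log2 values was wider among controls than among knockouts for 8 of the 10 genes, and narrower for Scd2 and Pnpla3. The share of all genes with a wider spread among controls was not computed, so this is not shown to be particular to the members. Control 2 was the highest of the 7 libraries for 4 members (Acaca, Acacb, Acly and Srebf1) and among the top 2 for 8 of 10, all but Scd2 and Pnpla3. Control 3 was the lowest for 5 members, namely Fasn, Acaca, Acly, Scd1 and Thrsp. In Mlxipl and Scd2 that library was instead the highest and the second of 7. The knockouts lay between those controls in Acly and Acaca.

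**Figure D3:**
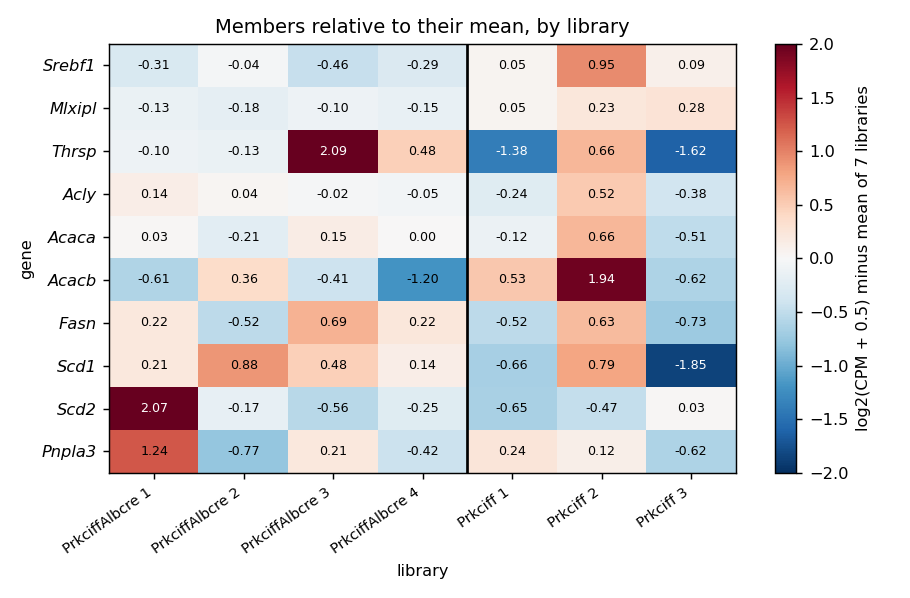
Level of each gene in each library as log2(CPM + 0.5) minus its mean over the 7 libraries, with the knockouts (PrkciffAlbcre) left of the line and the controls (Prkciff) right of it. Control 2 is above the mean for 9 of the 10 genes, and control 3 is at -1.85 for Scd1 and -1.62 for Thrsp.

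Without control 2, 6 of 10 members had an unadjusted p under 0.05 in edgeR, against 12.1% of all genes, and 0 passed after adjustment (0.221% of all genes did). Of the 6, Scd1 at 1.59 (SE 0.39, edgeR adjusted p = 0.155), Fasn at 0.84 (SE 0.30), Acly at 0.34 (SE 0.12) and Thrsp at 2.43 (SE 0.88) had log2 fold changes above 0. Those 4 were higher in every knockout than in controls 1 and 3, as were 11.5% of all genes. Srebf1 and Mlxipl, at -0.34 and -0.31, were lower in every knockout, as were 10.5% of all genes. That subset was examined with the values known.

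Control 3 had an acute phase level like that of the knockouts. Set against it alone, Scd1 was at 2.31 on the log2 scale (SE 0.34, edgeR adjusted p = 0.0641), Acaca at 0.52, Acly at 0.41 and Mlxipl at -0.42. These 4 had an unadjusted edgeR p under 0.05 (10.9% of all genes did), and 0 members passed after adjustment (0.0612% of all genes did). There a single control is assumed to vary like the knockouts. In every knockout 5 members were higher and 2 lower than in control 3, beside 25.8% and 25.6% of all genes.

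Without control 3, Acacb, Srebf1 and Mlxipl were lower in every knockout, beside 17.8% of all genes, and 0 members were higher, beside 17.4%. The same 3 had an unadjusted edgeR p under 0.05 (23.8% of all genes did), and 0 passed after adjustment (9.32% of all genes did). Srebf1 came closest, at -0.84 (edgeR adjusted p = 0.0667).

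**Figure D4:**
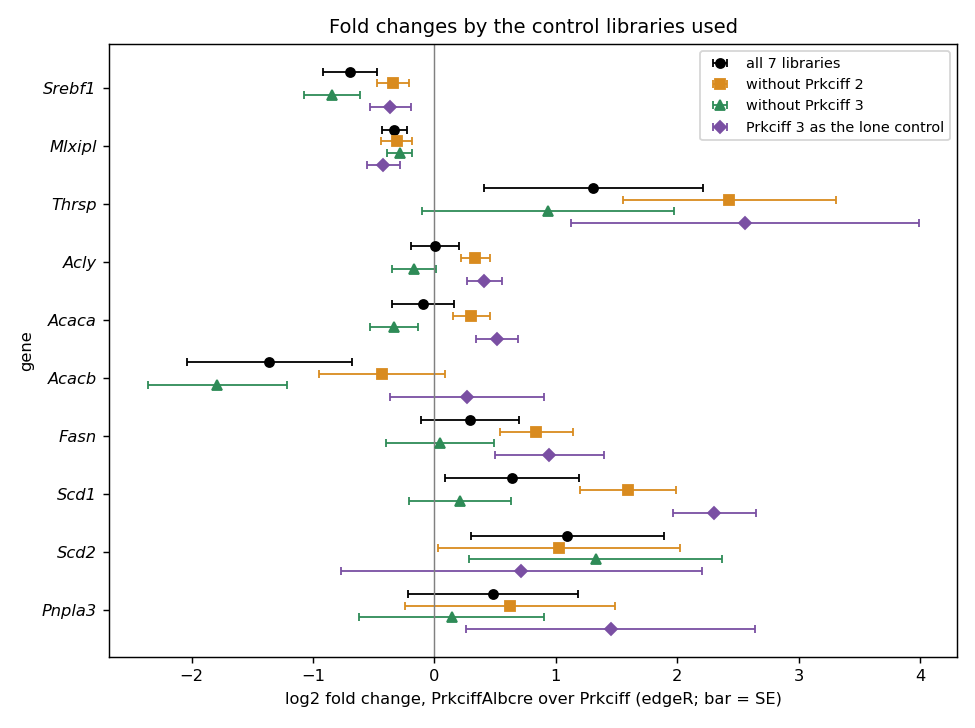
log2 fold change of the knockouts over the controls (PrkciffAlbcre over Prkciff, edgeR) with its SE for each gene, fitted with all 7 libraries, without control 2, without control 3 and with control 3 as the lone control. Srebf1 and Mlxipl stay below 0 in all 4 fits, whereas Acaca, Acacb and Acly are on both sides of 0.

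Ratios within a library between the other pairs showed no separation. The Scd2 to Scd1 ratio was 0.0120, 0.00155, 0.00155 and 0.00247 in the knockouts and 0.00319, 0.00133 and 0.0119 in the controls (exact two-sided permutation p = 0.743, adjusted over 3 ratios p = 0.743). It was as high in control 3, where Scd1 was low, as in knockout 1, where Scd2 was high. The Srebf1 to Mlxipl ratio was 0.435, 0.542, 0.383 and 0.447 in the knockouts and 0.491, 0.812 and 0.433 in the controls (exact two-sided permutation p = 0.400, adjusted over 3 ratios p = 0.600). Per unit of Srebf1, a measure chosen after the values were seen, Scd1, Acly and Thrsp were higher in every knockout, 3 of 9 members beside 35.5% of all genes, so this share was close to the background.

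Compared per length, as TPM computed here from merged exons, Scd1 averaged 3987 ± 989 in the knockouts and 1982 ± 1616 in the controls (SD, n = 4 and 3). Next came Thrsp at 199.5 ± 166 TPM and 64.2 ± 56.3 TPM, Mlxipl at 116 ± 2.01 TPM and 120.1 ± 28.2 TPM, and Acly at 86.2 ± 6.59 TPM and 69.1 ± 20.6 TPM, knockouts first in each pair. Fasn at 68.2 ± 20.7 TPM and 44.6 ± 21.6 TPM and Srebf1 at 51.3 ± 7.16 TPM and 67.0 ± 22.1 TPM followed. Over all 7 libraries Scd2, Acacb and Acaca averaged 10.5, 10.2 and 7.44 TPM, and Pnpla3 was last at 2.31 TPM. In the range of their libraries Thrsp overlapped Mlxipl, Acly, Fasn and Srebf1, with 446 TPM in knockout 3 and 29.7 to 151 TPM in the other libraries. Acly, Fasn and Srebf1 overlapped one another, as did Scd2, Acacb and Acaca. In knockout 1, Scd2 at 36.9 TPM reached into the ranges of Thrsp and Fasn. Pnpla3 at 6.63 TPM there reached into those of Scd2, Acacb and Acaca. Mlxipl lay above Acly in all 7 libraries. With the length of the longest transcript Acaca averaged 10.8 TPM, and the order of Fasn and Srebf1 and that among Scd2, Acacb and Acaca changed. TPM carry no TMM factor, so they compare genes within a library rather than groups.

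The surrounding pathway was read from 10 lists with 99 tested genes of 101. edgeR's quasi-likelihood test called 0 of them, beside 2.21% of all genes. DESeq2 called 8, beside 8.33% of all genes, so its share was close to the background. With limma-voom 0 were called, beside 137 of all 13638 genes. At an unadjusted edgeR p under 0.05, 10 were higher and 13 lower, 23 of 99 beside 18.0% of all genes (9.34% higher and 8.67% lower).

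Among 9 genes that supply acetyl-CoA precursors and NADPH, 2 were higher at an unadjusted p under 0.05, beside 9.34% of all genes. The median log2 fold change was 0.23. Pdha1, a subunit of pyruvate dehydrogenase, was at 205, 194, 192 and 196 CPM in the knockouts and at 122, 123 and 181 CPM in the controls. Its log2 fold change was 0.47 (SE 0.15, edgeR adjusted p = 0.135), and 0.68 without control 3 (edgeR adjusted p = 0.00271). With other libraries left out, its edgeR adjusted p reached 0.413. Idh1, the cytosolic isocitrate dehydrogenase, lay at -0.18 on the log2 scale (SE 0.12, edgeR adjusted p = 0.487). Of 8 tested elongases and other desaturases, 0 reached that level, with a median of -0.18, and the abundant elongases Elovl2 and Elovl5 were at -0.34 and 0.32. Scd3 and Scd4 were too low to be tested.

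Of 11 triglyceride synthesis genes, 1 was lower at an unadjusted p under 0.05, beside 8.67% of all genes, and the median was 0.07. The lower one was Acsl3, an acyl-CoA synthetase of lipid droplets, at 22.1, 17.0, 19.7 and 20.1 CPM in the knockouts and at 32.8, 34.5 and 24.1 CPM in the controls (log2 fold change -0.63, SE 0.15, edgeR adjusted p = 0.0580; -0.78 and 0.00462 without control 3). Acsl1, which activates fatty acids, and Dgat2, which completes triglyceride, were the most abundant, at 0.19 (SE 0.49) and -0.16 (SE 0.13). Acsl1 was at 1.10 without control 3 (edgeR adjusted p = 0.0113) and at -0.77 against control 3 alone.

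Among 15 genes that control SREBP and ChREBP, 1 was higher and 3 lower at an unadjusted p under 0.05, beside 9.34% and 8.67% of all genes. The list median was -0.11. Beside 7.63% of all genes, the 3 that were lower lay below every control in every knockout. They were Scap, the escort of SREBP out of the endoplasmic reticulum, at -0.30 (SE 0.11, edgeR adjusted p = 0.195), the protease Mbtps1 that cleaves SREBP, at -0.23 (SE 0.09), and Rxra, the partner of LXR, at -0.38 (SE 0.14, edgeR adjusted p = 0.179). The higher one was Insig2, which holds SREBP back, at 450, 352, 397 and 565 CPM in the knockouts and at 224, 218 and 391 CPM in the controls (0.67, SE 0.24, edgeR adjusted p = 0.184; 0.99 and 0.00858 without control 3), control 3 lying inside the range of the knockouts. Insig1, on the same list, went the other way, at -0.39 (SE 0.30, edgeR adjusted p = 0.563). Scap, Mbtps1, Acsl3 and Insig1 were chosen after seeing their values.

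Of 9 genes of insulin signalling, an upstream input to Srebf1, 4 were lower at an unadjusted p under 0.05, beside 8.67% of all genes. In 1 of the 9 the log2 fold change was above 0, beside 48.9% of all genes, and the median was -0.24. Irs2, an insulin receptor substrate, was at 6.66, 5.51, 6.67 and 6.99 CPM in the knockouts and at 17.0, 15.2 and 7.41 CPM in the controls (-1.03, SE 0.25, edgeR adjusted p = 0.0680). Both Irs2 and Akt2 were chosen after seeing their values. Akt2, the kinase below it, was at 54.7 to 58.4 CPM in the knockouts and at 68.7, 73.2 and 63.9 CPM in the controls (-0.30, SE 0.09, edgeR adjusted p = 0.110). The receptor Insr was at -0.34 (SE 0.13), and Pik3r1, a regulatory subunit of PI3-kinase, at 0.13 (SE 0.17). Without control 3, Irs2 was at -1.32, Akt2 at -0.35 and Insr at -0.48 (edgeR adjusted p = 0.000946, 0.0437 and 0.0182), where 9.32% of all genes were called. With other libraries left out, their edgeR adjusted p reached 0.262, 0.368 and 0.533.

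LXR targets had a median of -0.34, with 3 of 6 lower at an unadjusted p under 0.05, beside 8.67% of all genes. The cholesterol exporters Abca1 and Abcg8 were at -0.45 (SE 0.17) and -0.59 (SE 0.24). Without control 3, Abca1 was at -0.59 (edgeR adjusted p = 0.0443). The 10 ChREBP targets had a median of 0.20, with 1 higher at that level, beside 9.34% of all genes. Tkfc, a triose kinase of fructose metabolism, was at -0.29 (SE 0.21). Of 13 SREBP2 targets of cholesterol synthesis, 1 was lower, beside 8.67% of all genes, and the median was -0.03. The synthase gene Hmgcs1 was at 0.79 (SE 0.36), and at 1.03 without knockout 2 (edgeR adjusted p = 0.0270). With other libraries left out, its edgeR adjusted p reached 0.562. The 8 genes of AMPK and malonyl-CoA removal had a median of 0.06, with 2 higher and 1 lower, beside 9.34% and 8.67% of all genes. Mlycd and Prkaa2 were at 0.11 and -0.09.

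All 10 lipid droplet genes had a log2 fold change above 0, beside 48.9% of all genes. At an unadjusted p under 0.05, 4 of 10 were higher, beside 9.34% of all genes, and the median was 0.56. Cidec, a droplet fusion protein, was at 54.5, 96.0, 83.4 and 46.0 CPM in the knockouts and at 0.557, 1.08 and 21.3 CPM in the controls (3.15, SE 1.25, edgeR adjusted p = 0.274). Plin4, a droplet coat protein, was at 61.1 to 117 CPM in the knockouts and at 9.01 to 38.7 CPM in the controls (2.07, SE 0.59, edgeR adjusted p = 0.153), and Pnpla2, the first triglyceride lipase, at 84.1 to 102 CPM in the knockouts and 61.5 to 81.0 CPM in the controls (0.43, SE 0.12, edgeR adjusted p = 0.0889). These 3 were chosen after their values were seen. Without control 3, Cidec was at 6.39 (edgeR adjusted p = 0.00154) and Plin4 at 3.01 (edgeR adjusted p = 0.00202). With other libraries left out, their edgeR adjusted p reached 0.509 and 0.355. The most abundant, Plin2, was at 0.35 (SE 0.28). It was 0.83 without control 3 (edgeR adjusted p = 0.00433) and -0.31 against control 3 alone, where Cideb was at -0.07 in place of 0.11.

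**Figure D5:**
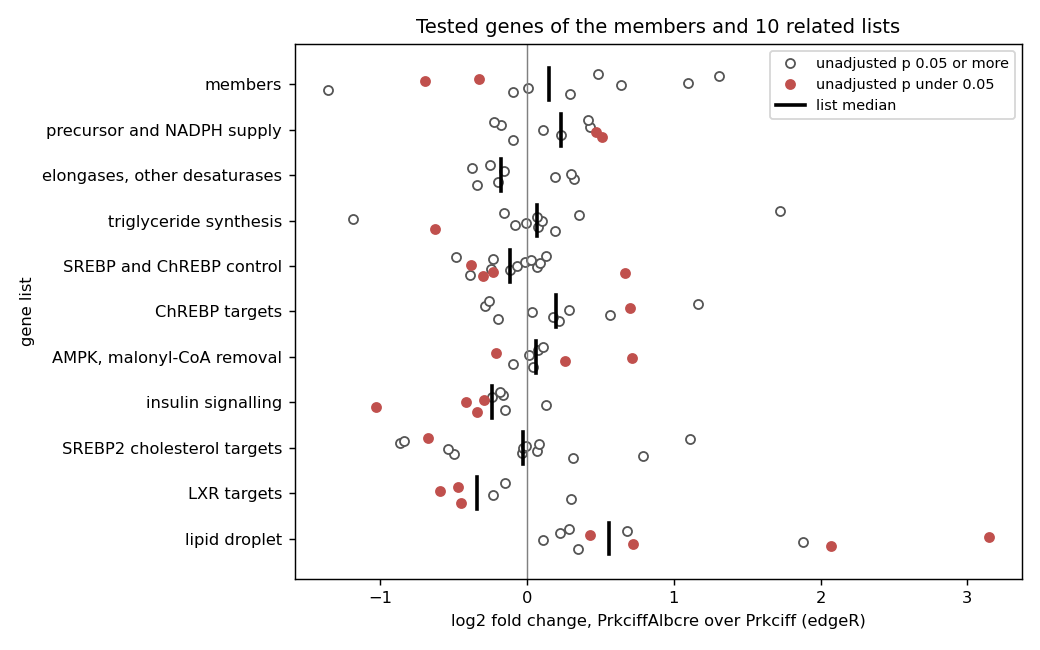
log2 fold change of the knockouts over the controls (PrkciffAlbcre over Prkciff, edgeR) for every tested gene of the 10 lipogenic members and of 10 related lists. Filled points have an unadjusted p under 0.05 and the bar is the list median, which is 0.15 for the members, 0.56 for the lipid droplet list and -0.34 for the LXR targets.

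Lipogenic genes are also expressed in fat cells, so markers of other cells were read beside them. Of the 6 adipocyte markers, Plin1 had 0 CPM in all 7 libraries and Adipoq, Lep and Retn were at most 0.149, 0.0506 and 0.178 CPM. The list summed to 6.81 to 20.1 CPM in the knockouts and to 13.4 to 26.5 CPM in the controls, most of it Adrb3 except in knockout 2, where Cfd was at 12.1 CPM. That receptor gene fell in the knockouts at -1.37 (SE 0.29, edgeR adjusted p = 0.0487), with edgeR adjusted p-values from 0.000844 to 0.167 when each library was left out. Hepatocyte markers summed to 59185 to 73650 CPM in the knockouts and 77057 to 106261 CPM in the controls, most of it Alb. Alb was at -0.42 on the log2 scale (SE 0.29, edgeR adjusted p = 0.487). Of the 6 markers, 2 lay above 0 (Ttr at 0.02 and Cps1 at 0.12) and 4 below, with a median of -0.12. Hnf4a, a hepatocyte transcription factor, overlapped between groups, at 658 to 797 CPM in the knockouts and 754 to 920.1 CPM in the controls.

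The 6 stellate cell markers summed to 104 to 222 CPM in the knockouts and to 37.7 to 83.5 CPM in the controls, led by collagens, with Col1a1 and Col3a1 at log2 fold changes of 2.61 (SE 0.55) and 2.13 (SE 0.43), adjusted p = 0.0726 and 0.0632 in edgeR. Without control 3 these were 3.27 and 2.46 (edgeR adjusted p = 0.0173 and 0.0387), and without knockout 2 they were 2.82 and 2.32 (edgeR adjusted p = 0.0462 and 0.0308). Those fits called 1310 and 429 genes in all. With other libraries left out, the edgeR adjusted p of Col1a1 and Col3a1 reached 0.260 and 0.225. The other stellate markers, named after seeing their values, split in direction. Acta2 and Pdgfrb lay above 0, at 0.73 (SE 0.46, edgeR adjusted p = 0.446) and 0.92 (SE 0.35, edgeR adjusted p = 0.219). Lrat, the retinol esterifying enzyme of quiescent stellate cells, was at -0.85 (SE 0.20, edgeR adjusted p = 0.0620) and lower in every knockout than in every control. Des was at -0.23 (SE 0.23). The 6 macrophage markers summed to 222 to 438 CPM in the knockouts and 332 to 508 CPM in the controls. They split in direction, 3 above 0 and 3 below. The most abundant, the Kupffer cell marker Clec4f and the receptor Csf1r, were at -1.04 (edgeR adjusted p = 0.238, but -1.45 and 0.0223 without knockout 2) and -0.62 (0.260). Gpnmb and Trem2, markers of lipid-associated macrophages named after seeing their values, were at 2.51 (SE 0.74, edgeR adjusted p = 0.162, but 3.83 and 0.00340 without control 3) and 1.00 (SE 0.40, 0.230). With other libraries left out, the edgeR adjusted p reached 0.513 for Clec4f and 0.407 for Gpnmb. The 4 neutrophil markers measured of 5 summed to 11.5 to 15.2 CPM in the knockouts and to 249, 59.5 and 14.5 CPM in the controls, S100a8 and S100a9 being highest in control 1. The 5 sinusoidal endothelial markers summed to 232 to 327 CPM in the knockouts and to 325 to 415 CPM in the controls, with Kdr at -0.55 and Stab2 at -0.35, and the 5 cholangiocyte markers to 153 to 341 CPM and to 62.6 to 228 CPM, mostly Spp1. The part of these cells in the lipogenic values was not tested.

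The transcripts whose pattern over the 7 libraries was most like the mean of the 10 members were Nob1, Xdh, Sirt4, Nhsl1, Telo2 and Espl1, with Pearson's r of 0.968 to 0.953 over 7 libraries given as a measure of likeness. Xdh, the xanthine oxidoreductase of purine breakdown, was at 218, 159, 171 and 145 CPM in the knockouts and at 141, 253 and 121 CPM in the controls. Nob1, a ribosome assembly factor, was at 10.2, 8.78, 9.98 and 8.55 CPM in the knockouts and at 9.01, 11.8 and 7.37 CPM in the controls. In both, control 2 was highest and control 3 lowest.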

How the data were processed

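Poly(A) RNA of liver was sequenced in strand-specific libraries as single reads of 75 nt, per the labels' protocols. The authors deposited unnormalised read counts by symbol, with 1 column for each library. The submitters' processing notes list STAR, DESeq2 and mm10 without roles. Neither counter nor annotation is given in the sources used here. The entries for ambiguous reads (0.433% to 0.575%) and reads in no feature (8.62% to 16.3%) stayed out of library sizes and tests.

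Groups came from the sample titles. Nothing in the labels says how cages or days were shared, so p-values measure the spread between these libraries. Counts were fitted in edgeR 4.0.16 under R 4.3.3 with TMM, filterByExpr (minimum count 10), robust quasi-likelihood fits and Benjamini-Hochberg adjustment over all 13638 genes at 0.05. SE is the absolute log2 fold change over the square root of F. The steps were tested on 5 simulated data sets with 200 changed genes each. They recovered 58.6% of 2-fold and 83.2% of 4-fold changes, and 6.11% of the calls were false. Libraries of a group had the same expected levels there, so no outlying control was simulated. Spread percentiles use log2(CPM + 0.5). Lengths and coordinates came from GENCODE M21 (GRCm38), which matched 23376 symbols, and promoters from RefSeq. Overlap with other genes' exons was at most 6.78% of exon bases (Pnpla3).

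Members and lists were chosen with earlier results of these data known. Named genes were the members, of each list up to 2 called in each direction or else the 2 most abundant, and the 6 of most similar pattern; some of these are not reported here. Alternatives were RLE, upper-quartile and library-size scaling, DESeq2 1.42.0, voom in limma 3.58.1, other filters (none, or 1 CPM in 4 libraries), no robust estimation, a replicate block, a threshold of 0.1 and left-out libraries. Libraries of a group all differed beyond counting noise (lowest chi-square over its degrees of freedom 37.1, between controls 1 and 2). Between control 3 and controls 1 and 2 it was 334 and 336, and among the knockouts it was 48.4 to 129. Counting error alone is covered by the limit of 3 reads for a count of 0. Figures used matplotlib 3.10.9.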

Additional observations from a re-analysis of the deposited data

Results flagged for a closer look

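Of 63 sets of 4 knockout values that were examined, 4 had 1 library far from the others. Chance alone would flag about 1 in 20, so 4 of 63 was close to that share. Some of the sets were genes chosen after their values were seen, and 2 of the 4 flags share the Scd2 value of knockout 1. Scd2 was at 61.8 CPM in knockout 1, and the Scd2 to Scd1 ratio there was 0.0120, the highest of the knockouts. H19, an oncofetal RNA, was at 219 CPM in the same library. Thrsp was at 316 CPM in knockout 3, where Fasn was also at its highest of all 7 libraries, 326 CPM.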

How the results depend on the processing

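The count of genes called, 302, was 1136 with DESeq2, 137 with limma-voom, 498 with library size alone, 767 at a threshold of 0.1 and 9 against control 3 alone, and ran from 31 to 1310 when each library was left out. It was 74 with the replicate number as a block, but the numbers did not pair the libraries (deviations of same-numbered libraries correlated at -0.05, 0.08 and -0.14). Members called stayed at 0 except for 2 with DESeq2. Members without overlap, 2 beside 16.3% of all genes, were 0 by library size and 2 to 6 over the left-out libraries. The 6 came without control 2, where 11.5% of all genes were higher and 10.5% lower without overlap. Against control 3 alone they were 7, where 25.8% of all genes were higher and 25.6% lower, so the share of all genes rose too. The median log2 fold change of the 10 members, 0.15, was 0.62 against control 3 alone and ran from -0.07 to 0.48 over the left-out libraries.

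Some log2 fold changes turned sign. By library size they were 0.17 for Acaca, 0.049 for Idh1, 0.069 for Dgat2, 0.13 for Prkaa2, 0.17 for Apob and 0.0054 for Mbtps1. Against control 3 alone they were 0.52 for Acaca, 0.27 for Acacb, -0.028 for Elovl5, -0.77 for Acsl1, -0.22 for Pik3r1, -0.31 for Plin2 and -0.0685 for Cideb. Acly was at -0.0066 with upper-quartile factors, and Sox9, a cholangiocyte marker, at -0.16 with the block. Over the left-out libraries the values ran from -0.33 to 0.31 for Acaca, -0.17 to 0.34 for Acly, -0.36 to 0.78 for Pnpla3, -0.12 to 1.10 for Acsl1, -0.027 to 0.34 for Pik3r1, -0.15 to 0.33 for Sox9 and -1.08 to 0.50 for the log2 Scd2 to Scd1 ratio. The cause was not tested. Of 1115 values under alternatives, 997 were rated as unchanged, by rules that differed with the kind of value. Gene fold changes had to keep direction and side of the threshold, or direction alone where no adjusted p was given. Ratios had to keep direction. Counts, medians and levels per length had only to stay close, so a median near 0 could turn sign and still be rated unchanged. Depth limits Pnpla3, which had 14 to 168 reads per library.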
